A study of Canis lupus familiaris with 6 samples.

Results

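The genes described here encode Ras proteins and the kinase cascade that they activate. The members were the 7 genes HRAS, NRAS, ARAF, BRAF, MAP2K1, MAP2K2 and MAPK3, each taken by its symbol in the gene name column of the array design, which holds 14228 gene names apart from accessions. They had 14 probes among 43603 non-control probes, namely 1 each for HRAS, BRAF and MAP2K1, 2 for NRAS and 3 each for ARAF, MAP2K2 and MAPK3. All 14 were well above background on all 6 arrays, so none was lost to the filter on dim probes.

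Ras proteins are small GTPases at the inner face of the plasma membrane. In the GTP-bound state they recruit RAF kinases such as ARAF and BRAF, which phosphorylate MEK1 and MEK2 (encoded by MAP2K1 and MAP2K2), and these phosphorylate ERK kinases such as ERK1 (encoded by MAPK3). The V12 substitution keeps Ras in the GTP-bound state. In MDCK epithelia, cells with RasV12 are known to be extruded when other epithelial cells surround them. The cascade is driven mainly by phosphorylation, which a transcript array does not read.

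All samples came from MDCK, a canine epithelial line established from kidney. All carried mCherry-β-catenin Δ131, a β-catenin without its first 131 residues that is not degraded (β-cat ΔN), together with GFP-RasV12 under a tetracycline-inducible promoter (pTR). Such β-cat ΔN/RasV12 cells were grown alone (single culture, 3 arrays) or with 10 β-cat ΔN cells, which lack RasV12, for each RasV12 cell (mix culture, 3 arrays). Tetracycline was given for 24 h in both cultures, after which GFP-positive cells were sorted and total RNA was labelled with Cy3 for a single-colour Agilent canine array. None of the 6 samples was uninduced or free of RasV12. The labels name neither the isoform nor the species of the introduced Ras, and do not say whether replicates came from separate cultures, so p-values measure the spread between these arrays, which may be technical.

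Replicate 1 of each culture lay on one slide (slide 1) and replicates 2 and 3 on another (slide 2), as the barcodes in the file headers show. Between 61.1% and 65.7% of spots on an array were well above background, and no spot was saturated. Of 7 epithelial marker genes, 6 had a probe, and all 6, CDH1 and EPCAM among them, were well above background on every array. Of 5 markers of leukocytes, macrophages, endothelium and fibroblasts, PTPRC was at background on all 6 arrays (1.00 to 1.06 intensity units), while CD68, PECAM1 and PDGFRB were well above it on all 6 and COL1A1 on 4, at 3.60 to 253 units over these 4 genes. Their part in the results was not tested.

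The stretches that the probes read decide what each value can mean, so those of the results given most room are shown first. The HRAS probe (A_11_P0000027700) reads the dog HRAS transcript from base 169 and lies at chr18:25644311-25644370 on the minus strand (CanFam3.1, as are all positions here).
HRAS probe: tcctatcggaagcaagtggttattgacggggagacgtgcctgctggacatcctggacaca
The HRAS stretch lies downstream of the codon that V12 alters. It therefore cannot tell mutant from normal HRAS RNA, and it can report introduced RNA only as far as the introduced cDNA matches these bases.

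For MEK1, the single MAP2K1 probe (A_11_P0000023540, from base 729 of its transcript) spans 2099 bases of chromosome 30 at chr30:30751926-30754024 on the plus strand. A probe of 60 bases over so long a span crosses a splice junction, so it reads spliced RNA. For ERK1, the MAPK3 probes from base 775 (A_11_P152928, chr6:18111175-18111593, minus strand, over a junction) and from base 819 (A_11_P096741, chr6:18111131-18111190, minus strand) overlap by 16 bases, shown in capitals, and are thus not independent readings.
MAP2K1 probe: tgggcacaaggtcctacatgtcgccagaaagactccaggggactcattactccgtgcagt
MAPK3 probe from base 775: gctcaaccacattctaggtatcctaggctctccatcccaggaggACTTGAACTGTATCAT
MAPK3 probe from base 819: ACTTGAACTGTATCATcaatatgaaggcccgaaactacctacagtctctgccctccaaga
Exon and UTR annotation of CanFam3.1 was not used here, so other probes are placed by position and by whether they cross a junction.

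To ask whether the transcripts of the cascade differ when β-cat ΔN cells surround β-cat ΔN/RasV12 cells, mix culture was compared with single culture. None of the 14 member probes was called by limma at an adjusted p under 0.05, and none had an unadjusted p under 0.05, beside 8.71% of all probes tested. The adjusted p values lay between 0.608 and 0.999. Over all 26621 probes tested, 0.883% were called (0.815% higher and 0.0676% lower in mix culture). The fitted log2 changes of the members lay between -0.62 for HRAS and 0.30 for MAP2K1, with 10 probes below 0 and 4 above. Their median was -0.13, beside -0.051 over all probes tested, of which 58% were below 0 and 42% above. Within slides the median of the member probes was -0.25 on slide 1 and -0.069 on slide 2, and that of all probes -0.057 and -0.043. On slide 1 alone 12 of the 14 were below 0, beside 56.3% of all probes, and on slide 2 alone 9 of the 14, beside 57.6%. The methods' t-test, run on the same values, called none of the 14 and gave none an unadjusted p under 0.05. Over all 26621 probes it called only 8, and it gave 2590 an unadjusted p under 0.05.

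HRAS, which encodes a classical Ras protein, had the lowest change of the 14 probes. Its signal was 12906, 18894 and 15116 intensity units in single culture replicates 1, 2 and 3. In mix culture it was 10530, 9258 and 11827 units. Before scaling, every mix culture array was thus below every single culture array.

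After scaling to the 75th percentile of each array, HRAS read 5.97, 6.82 and 6.45 in single culture and 5.50, 5.68 and 6.20 in mix culture, in normalised log2 signal. The groups then overlapped, since mix culture replicate 3 on slide 2 lay above single culture replicate 1 on slide 1. On either slide alone, each mix culture array was below each single culture array, with log2 changes of -0.47 on slide 1 and -0.70 on slide 2. The same held for both NRAS probes, for ARAF from bases 358 and 2126 and for MAPK3 from bases 819 and 1605. For MAP2K1 it held the other way round, so it does not set HRAS apart. The share of all probes with such a pattern was not counted, so the list is not read as a result about the members. Of all probes, 56.3% had a change below 0 on slide 1 and 57.6% on slide 2. The HRAS means were 6.42 ± 0.43 and 5.79 ± 0.36 (SD, n = 3 arrays each). This gives a log2 change of -0.62 (SE 0.28, 95% CI -1.28 to 0.032), or 0.649-fold with an interval of 0.412 to 1.02, and an adjusted p of 0.608 by limma.

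With the slide as a block, the interval for HRAS narrowed to between -1.01 and -0.24, and the adjusted p was 0.065. With the replicate number as a block it was 0.10. It was 0.0297 by limma, and HRAS was called, only in the fit with the replicate block and mix culture replicates 2 and 3 exchanged, a pairing tried because the authors' table matches these 2 columns to each other's scanner file. The exchanged fit called 1447 of all 26621 probes. In the authors' table, whose values were already centred within slide 1, the HRAS change was -0.51 (limma adjusted p = 0.0517). In bulk RNA of sorted cells, fewer cells with high HRAS and less HRAS RNA per cell cannot be told apart.

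**Figure D1:**
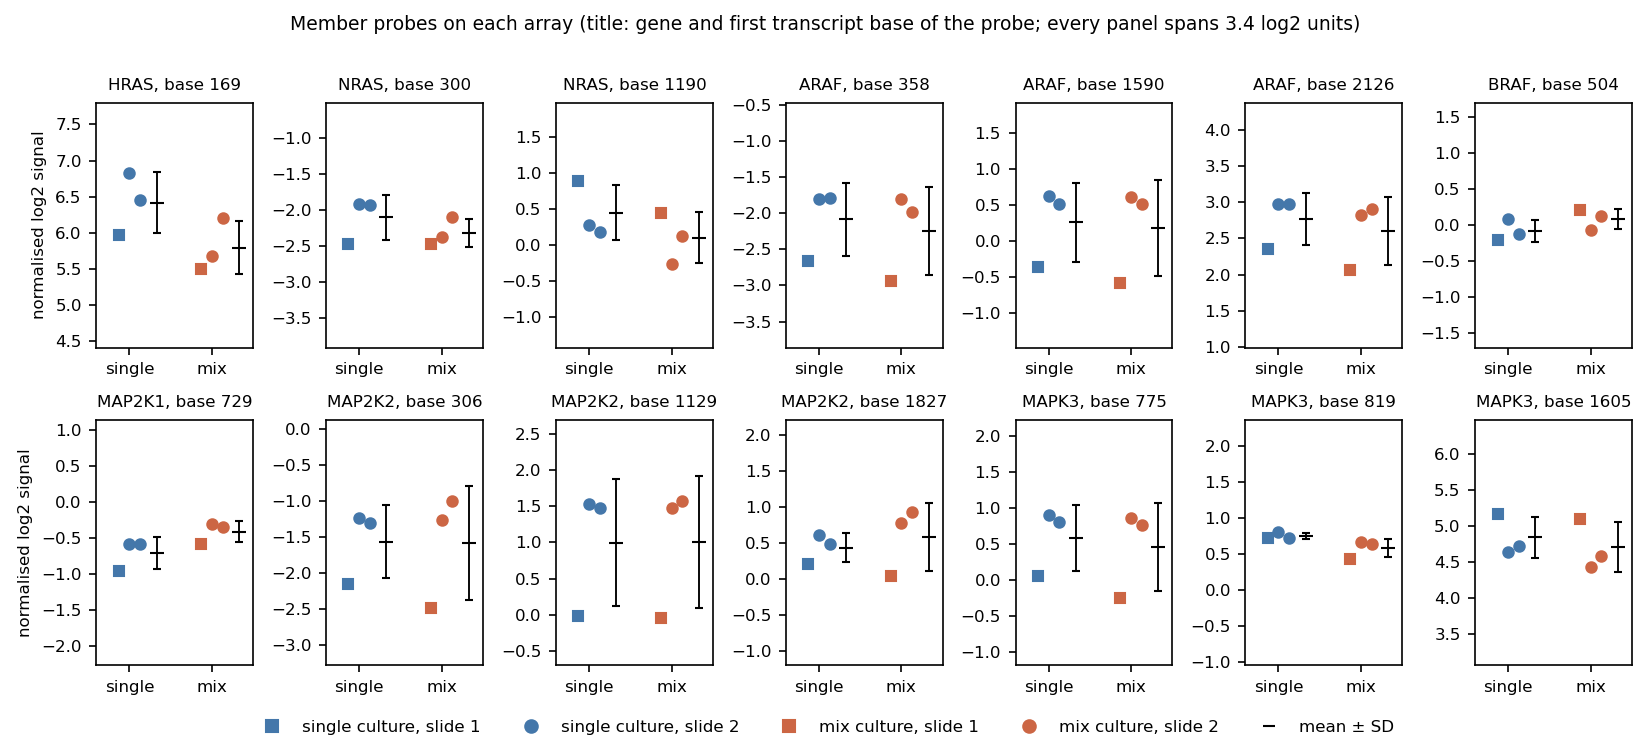
Normalised log2 signal (y axis) of the 14 member probes in single and mix culture (x axis), 1 point per array, with squares for slide 1, circles for slide 2 and the mean ± SD of 3 arrays beside them. Squares and circles stand apart in most panels. In the HRAS panel, as in several others, each mix culture point is below the single culture points of its own slide. The share of all probes with this pattern was not counted.

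NRAS, which encodes another classical Ras protein, was read by 2 probes, one from base 300 of the transcript (chr17:52415768-52415827) and one from base 1190 (chr17:52411736-52411795), both on the minus strand. The probe from base 300 gave 37.1, 44.0 and 45.2 intensity units in single culture and 41.8, 34.6 and 37.5 in mix culture, a log2 change of -0.21 (SE 0.21, 95% CI -0.71 to 0.28). The probe from base 1190 gave 380, 201 and 195 units in single culture and 317, 150 and 175 in mix culture, a log2 change of -0.35 (SE 0.26, 95% CI -0.97 to 0.28). Neither was called by limma, with adjusted p values of 0.893 and 0.841, and the groups overlapped for both. On slide 2, mix culture was below single culture for both probes, by 0.32 and 0.30 on the log2 scale, while on slide 1 the changes were -0.0063 and -0.44. With the slide as a block, the interval of the probe from base 1190 was -0.64 to -0.048, with an adjusted p of 0.146 by limma.

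Among the RAF kinases, BRAF, the strongest MEK kinase of the family, had 1 probe. It crosses a junction at chr16:8250924-8251563 (plus strand) and reads a partial coding sequence described as isoform 2. It gave 177, 177 and 157 intensity units in single culture and 267, 172 and 175 in mix culture. Before scaling, replicate 1 of mix culture was the highest. After scaling, replicates 1 and 3 of mix culture (0.20 and 0.12 in normalised log2 signal) were above every single culture array, of which the highest read 0.085, and replicate 2 was not. The log2 change was 0.17 (SE 0.16, 95% CI -0.22 to 0.55, limma adjusted p = 0.891), with 0.41 on slide 1 and 0.047 on slide 2.

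ARAF, a weaker MEK kinase encoded on the X chromosome, was read from bases 358 (chrX:41182940-41183091), 1590 (chrX:41189680-41190704) and 2126 (chrX:41191344-41191403), all on the plus strand, and the first 2 of these cross a junction. The log2 changes were -0.16, -0.077 and -0.16, with limma adjusted p values from 0.960 to 0.986. In the probe from base 2126 the signal was 1049, 1313 and 1353 intensity units in single culture and 976, 1283 and 1215 in mix culture. The lowest value of each culture was replicate 1, on slide 1, and the same was true of the other 2 ARAF probes.

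MAP2K1, which encodes MEK1, had the highest change of the members. Its probe gave 105, 111 and 115 intensity units in single culture and 156, 146 and 126 in mix culture. In normalised log2 signal these were -0.97, -0.58 and -0.58 against -0.58, -0.31 and -0.36. Every mix culture array was above every single culture array, although mix culture replicate 1 and the single culture arrays of slide 2 lay so close that they read alike at this rounding. The log2 change was 0.30 (SE 0.18, 95% CI -0.12 to 0.72, limma adjusted p = 0.766), with 0.39 on slide 1 and 0.25 on slide 2. With the slide as a block the interval was 0.067 to 0.53, and the adjusted p was 0.115 by limma. From the authors' table the change was 0.29 and MAP2K1 was called (limma adjusted p = 0.0304), in a fit that called 15.3% of all probes, 7.32% as higher and 8% as lower. The values of that table were already centred within slide 1, so this fit is not like the fit without a block on the scanner values.

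MAP2K2, which encodes MEK2, was read from bases 306 (chr20:55470048-55475121, over a junction), 1129 (chr20:55487536-55487595) and 1827 (chr20:55487866-55487924), all on the plus strand. The probe from base 1129 gave 202, 483 and 482 intensity units in single culture and 225, 505 and 481 in mix culture. These values group by slide and not by culture, so the log2 change of 0.0060 came with a wide interval of -1.33 to 1.34. With the slide as a block the interval of this probe was -0.22 to 0.24, which leaves out changes of the size fitted for HRAS and for MAP2K1. The other 2 probes had log2 changes of -0.020 and 0.14, with limma adjusted p values of 0.996 and 0.962. Their slide-block intervals were -0.336 to 0.295 from base 306 and -0.159 to 0.446 from base 1827. The last of these includes the change fitted for MAP2K1 (0.298). The probe from base 1827 was lower in mix culture on slide 1, by 0.17, and higher on slide 2, by 0.30.

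MAPK3, which encodes ERK1, had 3 probes with log2 changes of -0.12, -0.17 and -0.14 from bases 775, 819 and 1605 (chr6:18109276-18109335, minus strand), none called by limma (adjusted p of 0.977, 0.868 and 0.960). The probe from base 819 gave 338, 290 and 285 intensity units in single culture and 314, 286 and 250 in mix culture. After scaling, single culture read 0.72, 0.80 and 0.72 and mix culture 0.43, 0.66 and 0.64, so the groups did not overlap. The probe from base 1605, the brightest of the 3, gave 7367, 4139 and 4536 units in single culture and 7936, 3909 and 3849 in mix culture, and replicate 1 was the highest in each culture.

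Of the 14 member probes, 2 had groups that did not overlap, MAP2K1 higher and MAPK3 from base 819 lower in mix culture, beside 16.5% of all probes tested (7.85% higher and 8.66% lower). The range of the log2 changes was 0.045 over the 3 MAPK3 probes, 0.086 over the 3 ARAF probes, 0.13 over the 2 NRAS probes and 0.16 over the 3 MAP2K2 probes. No member probe was called with the slide block (0 of 14, beside 7.2% of all probes) or with the replicate block (0 of 14, beside 5.26%). With the slide block 3 of the 14, HRAS, NRAS from base 1190 and MAP2K1, had an unadjusted p under 0.05, beside 25.9% of all probes, so the members did not stand apart from the other probes in this count.

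**Figure D2:**
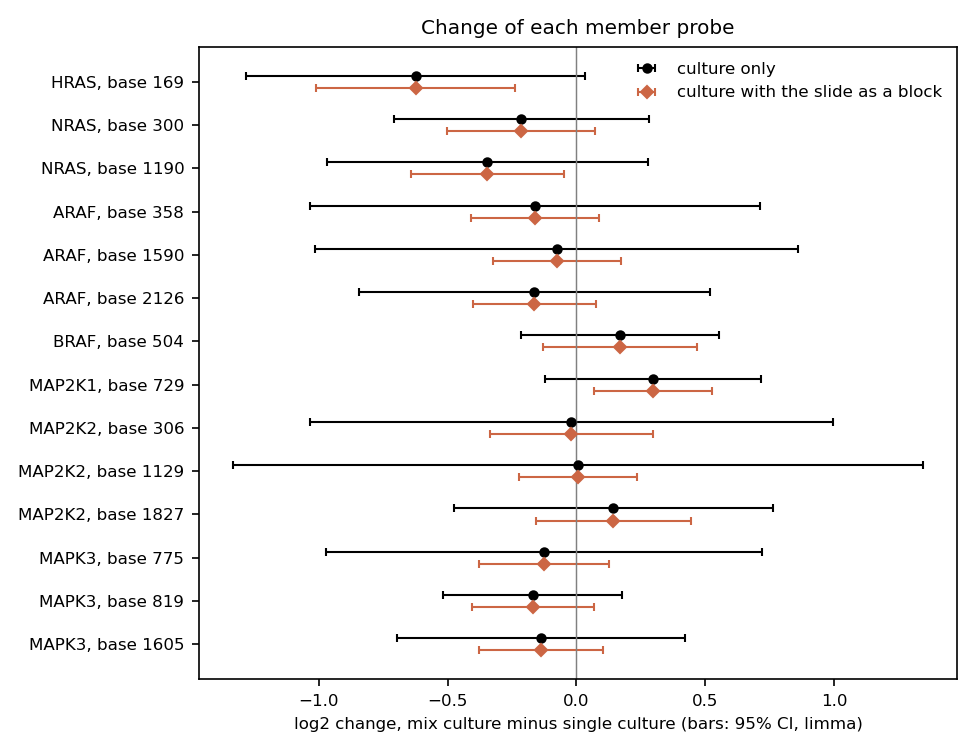
Fitted log2 change of each member probe, mix culture minus single culture (x axis), with limma's 95% interval, without a block (black circles) and with the slide as a block (orange diamonds). All 14 black intervals include 0, and with the slide block those of HRAS, NRAS from base 1190 and MAP2K1 do not, where 25.9% of all probes have an unadjusted p under 0.05.

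The member probes differed more by slide than by culture. With culture and slide in the model, limma called 12 of the 14 as differing between slides, beside 47.2% of all probes tested. Of these, 10 were higher on slide 2 and 2 were lower, while over all probes 5898 were called higher and 6658 lower. The median size of the slide difference was 0.58 on the log2 scale for the members and 0.35 for all probes. That of the culture change was 0.16 and 0.17. MAP2K2 from base 1129 differed most, being 2.93-fold higher on slide 2 (log2 difference 1.55, SE 0.11, limma adjusted p = 7.3e-05). BRAF and MAPK3 from base 819 were not called (adjusted p of 0.979 and 0.354).

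The slide differences went opposite ways in probes of the same gene for some genes. In MAPK3 they were 0.92 from base 775, 0.13 from base 819 and -0.54 from base 1605, although the first 2 share 16 bases. In NRAS they were 0.39 from base 300 and -0.59 from base 1190. In both genes the probe farthest along the transcript was lower on slide 2. This was not so for ARAF and MAP2K2, where all probes were higher on slide 2. The slides also differed in Feature Extraction version and scan resolution, so these cannot be told apart from other differences between the slides. Each slide held both cultures in equal number.

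**Figure D3:**
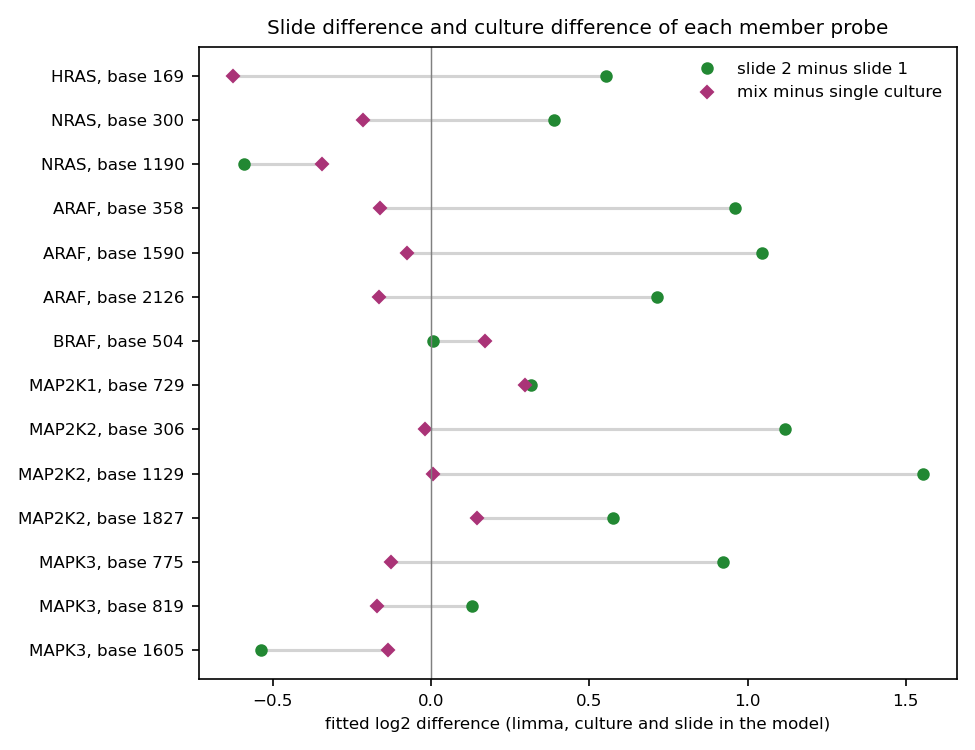
Fitted log2 difference between slides (green circles, slide 2 minus slide 1) and between cultures (purple diamonds, mix minus single) for each of the 14 member probes, from limma with both in the model. The green circles reach from -0.59 to 1.55 and change sign within NRAS and MAPK3, while the purple diamonds stay between -0.62 and 0.30.

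The rest of the pathway was described by lists, with the brightest tested probe for each gene. Of 4 further Ras relatives (RRAS, RRAS2, MRAS and RIT1) none was called by limma (median log2 change -0.37, with all 4 below 0). RRAS2, a Ras relative that can also transform cells, had the lowest p. It gave 4119, 2154 and 2597 intensity units in single culture and 2790, 1758 and 1572 in mix culture. After scaling the groups did not overlap, and the log2 change was -0.59 (SE 0.21), with limma adjusted p values of 0.451 without a block, 0.0214 with the slide block and 0.0389 with the replicate block. The other RRAS2 probe had a log2 change of -0.71 (SE 0.18), with adjusted p values by limma of 0.224 and, with the slide block, 0.0261. With the slide block 3.22% of all probes were called lower.

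Upstream of Ras, none of 10 activators and adaptors was called by limma (median log2 change -0.097). RASGRP2, an exchange factor best known for RAP1 in platelets, had the lowest p of them, with 48.0, 44.4 and 47.8 intensity units in single culture and 39.2, 16.9 and 22.8 in mix culture. Its log2 change was -0.98 (SE 0.24), with an adjusted p by limma of 0.19, of 0.0279 when slides were a block and of 0.0318 when replicate numbers were. The other RASGRP2 probe stood at -0.90 (SE 0.25), with adjusted p values by limma of 0.267 without a block and 0.0287 with the slide block. Of 12 GTPase-activating proteins and inhibitors none was called without a block (median 0.029), and with the slide block RASSF5 and RASAL2 were called higher (beside 3.98% of all probes). RASSF5, a Ras effector that acts as a tumour suppressor, gave 99.3, 94.7 and 76.9 units in single culture and 383, 244 and 154 in mix culture, so each mix culture array was above each single culture array. Its log2 change was 1.37 (SE 0.23), and limma's adjusted p went from 0.0564 without a block to 0.00493 (slide) and 0.00338 (replicate number). RASAL2, a GTPase-activating protein named here after its values were seen, had a log2 change of 0.54 (SE 0.20), with adjusted p values by limma of 0.502 without a block, 0.027 with slides and 0.0516 with replicate numbers as a block.

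None of the 7 tested genes listed for Ras processing (FNTA, FNTB, PGGT1B, PDE6D, GOLGA7, ZDHHC9 and LYPLA1) was called by limma (median log2 change 0.020). Neither was any of 22 scaffolds and regulators of RAF, MEK and ERK (median -0.11, with 17 genes below 0). ZDHHC9, a palmitoyltransferase of HRAS and NRAS, had the lowest p of the processing genes, at -0.26 on the log2 scale (SE 0.15, adjusted p of 0.766 by limma). YWHAB, a 14-3-3 protein that binds RAF kinases, had that of the scaffolds, with -0.29 (SE 0.15, limma adjusted p = 0.713). With the slide block SFN, another 14-3-3 protein, was the 1 scaffold called, with an adjusted p by limma of 0.041 (beside 3.22% of all probes called lower). Its log2 change was -0.67 (SE 0.42 without a block), and limma's adjusted p was 0.783 without a block and 0.0712 with the replicate block.

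Downstream of ERK, none of 9 substrates and kinases was called by limma in its brightest probe (median log2 change -0.16). ETS2, a transcription factor that ERK phosphorylates, gave 90.1, 115 and 105 intensity units in single culture and 277, 421 and 298 in mix culture. The arrays of the cultures stood well apart, and the log2 change was 1.60 (SE 0.29). By limma its adjusted p was 0.0744 without a block, 0.000398 with slides and 0.000513 with replicate numbers as a block, and 0.0291 to 0.308 when 1 array was left out. The other ETS2 probes had log2 changes of 1.75 (SE 0.29) and 1.68 (SE 0.18), with adjusted p values by limma of 0.053 and 0.00919, so 1 of the 3 was called higher. With the slide block 1 of the 9 genes, ETS2, was called higher and 2 were called lower (beside 3.98% and 3.22% of all probes). These 2 are named for that reason. ETS1, a related transcription factor, was lower on every mix culture array, at -0.99 on the log2 scale (SE 0.19), and its adjusted p by limma was 0.0821 without a block, 0.00177 with slides and 0.00432 with replicate numbers as a block. ELK3, a partner of SRF, stood at -0.45 (SE 0.19), with adjusted p values by limma of 0.574, 0.0328 and 0.0692 in the same order. ETS1 and ELK3 had 3 tested probes each, and only the brightest of each is given. Of 17 feedback and output genes of ERK, 2 were called lower and none higher, namely SPRY4, a feedback inhibitor of the cascade, and PLAU, the urokinase protease (0.0676% of all probes were called lower). SPRY4 gave 33.8, 33.7 and 36.6 units in single culture and 16.3, 11.4 and 15.2 in mix culture, and it fell by 1.36 on the log2 scale (SE 0.21, adjusted p of 0.0357 by limma). PLAU gave 238, 176 and 223 units in single culture and 116, 44.3 and 53.2 in mix culture, and fell by 1.77 (SE 0.27, adjusted p of 0.0357 by limma). Its other probe fell by 1.72 (SE 0.18, adjusted p of 0.00825 by limma). Neither gene's groups overlapped, and with 1 array left out their highest adjusted p by limma was 0.205 for SPRY4 and 0.194 for PLAU. With the slide block 8 of the 17 were called, 6 lower and 2 higher (beside 3.22% and 3.98% of all probes), and with the replicate block 5 lower and 2 higher (beside 2.02% and 3.23%). The 2 called higher in both were DUSP1 and DUSP7, which encode phosphatases of MAP kinases. Their log2 changes were 1.03 and 1.01 (SE 0.41 and 0.20 without a block). Beside SPRY4 and PLAU, those called lower in both were ETV5, FOSL1 and CCND1, and DUSP6 was called lower with the slide block only. DUSP7 had 3 tested probes and DUSP6 had 4, and only the brightest of each is given. The median over the 17 was -0.29, with -0.41 on slide 1 and -0.12 on slide 2.

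The MAP kinase modules other than ERK served as a comparison, and of their 12 tested genes none was called by limma (median log2 change -0.12, beside -0.14 for the 7 member genes by their brightest probe). MAP2K6, which encodes a kinase of p38, gave 2.73, 4.90 and 2.46 intensity units in single culture and 12.9, 8.95 and 8.46 in mix culture. It was well above background on 4 of the 6 arrays, so its log2 change of 1.56 (SE 0.31, adjusted p by limma of 0.0957, of 0.0129 with a slide block and of 0.0122 with a replicate block) rests partly on signals near background.

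**Figure D4:**
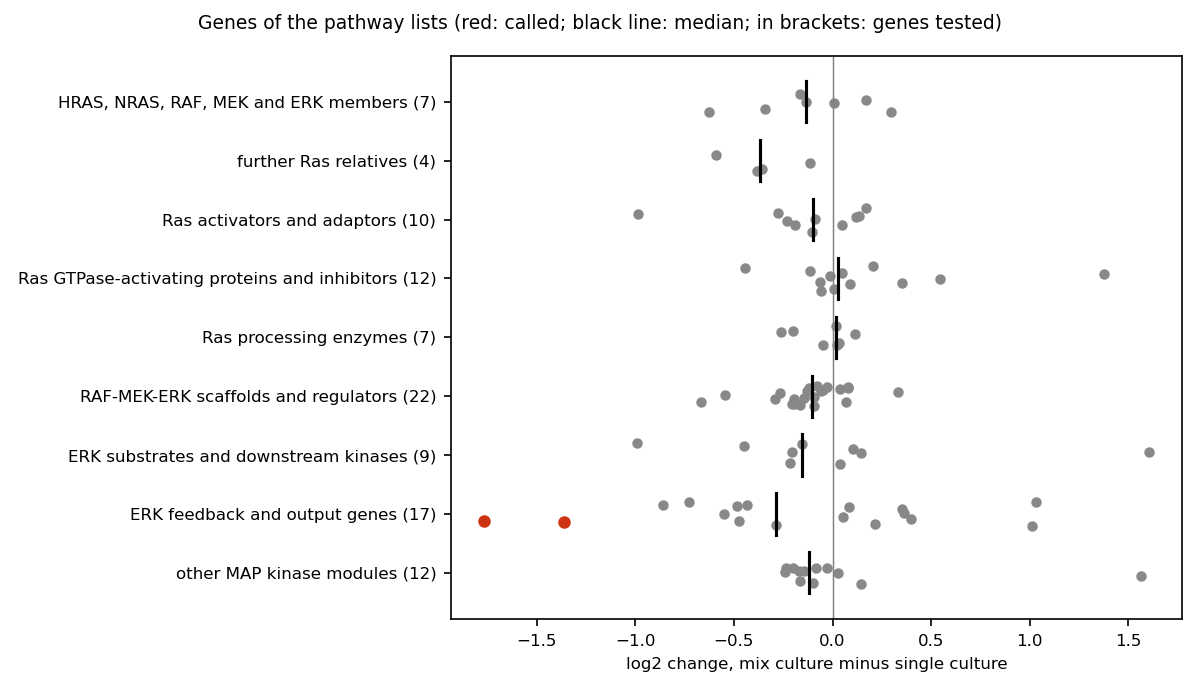
Log2 change, mix culture minus single culture (x axis), of every tested gene of 9 lists (rows, with the number of genes tested), 1 point per gene, red where limma called it and a black line at the median. SPRY4 and PLAU are the red points, and the member genes lie between -0.62 and 0.30.

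The profile of HRAS over the 6 arrays was set against 15131 other probes with a RefSeq symbol by Pearson's correlation on normalised log2 signal. SEPHS2, AEN and GMPR were the 3 genes most like it, with r of 0.998, 0.994 and 0.993. Over 6 arrays that share slides, such values describe likeness alone. SEPHS2 gave 98.5, 92.6 and 89.0 intensity units in single culture and 102, 80.8 and 79.4 in mix culture. Before scaling it was thus higher in mix culture on slide 1, and its log2 change was -0.17 (SE 0.15). AEN gave 245, 269 and 242 units in single culture and 212, 183 and 205 in mix culture. GMPR gave 197, 251 and 220 units in single culture and 194, 157 and 180 in mix culture. AEN and GMPR were thus lower on each slide in mix culture before scaling. The part of scaling in the likeness was not tested. None of the 3 was called by limma, with adjusted p values from 0.677 to 0.869.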

How the data were processed

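The authors deposited 1 Agilent Feature Extraction file per array, holding spot intensity on a linear scale, with background subtracted within the array and no scaling between arrays (versions 11.5.1.1 on slide 1 and 12.1.1.1 on slide 2, scanned at 3 and 5 µm per pixel, per the file headers). They also deposited a table of log2 values whose steps are not given in the sources used here. It is centred near 0 (column medians -0.02 to 0.02). Its columns for mix culture replicates 2 and 3 correlated at 0.999 and 0.993 with each other's scanner file within slide 2 and at 0.458 and 0.459 with their own.

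Here log2 of the processed signal was averaged over the spots of a probe, without 5 to 9 flagged spots per array, less the 75th percentile of that array. Testing was limited to probes that all 3 arrays of a culture (either one) showed well above background. The cultures were compared with lmFit and eBayes of limma 3.58.1 (R 4.3.3; two-sided), with Benjamini-Hochberg adjustment over all 26621 probes tested and a call under 0.05; the script was tested on simulated data. Fold changes are mix over single culture. The number of arrays limits the precision. Named genes were all member probes and, in each list, up to 3 called genes with the largest change or else the gene with the lowest p. Members and lists were chosen with earlier results of these data known. Some genes fixed in one list are not reported here and were left out of its counts.

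Same-numbered arrays were taken as pairs in the replicate block only, and the fit without a block was unpaired. Their deviations from the culture means correlated at 0.801, 0.53 and 0.572. For unlike numbers on slide 2 the correlations were 0.632 and 0.61, so on that slide these values cannot tell pairs from a shared slide. Alternatives were a slide block, a replicate block, other filters, normexp on the median signal with an offset of 50, quantile scaling, the authors' table, the methods' t-test and leaving out each array. Positions are those of the design, on CanFam3.1.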

Additional observations from a re-analysis of the deposited data

How the results depend on the processing

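The count of member probes called was 0 of 14 in every planned setting except the authors' table, where it was 1 (MAP2K1), beside 15.3% of all probes. The values of that table were already centred within slide 1. The count was also 1 (HRAS) with the replicate block and mix culture replicates 2 and 3 exchanged, a setting chosen after seeing the data. That setting called 1447 of all 26621 probes. Leaving out 1 array gave 0 to 0 calls among the members, with a lowest adjusted p of 0.378.

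Over all probes, 235 were called. The count was 1917 with the slide block, 1399 with the replicate block, 1447 with the exchanged replicate block, 143 when a probe had to pass the background filter on each of the 6 arrays, 101 with normexp, 4077 from the authors' table and 8 with the methods' t-test, which gave 2590 probes an unadjusted p under 0.05 against 2318 with limma. Leaving out 1 array gave 86 to 242, with 94 without single culture replicate 3, 92 without mix culture replicate 2 and 86 without mix culture replicate 3. In the pathway lists 2 genes were called, SPRY4 and PLAU. The count was 17 with the slide block, 13 with the replicate block, 15 with the exchanged replicate block, 24 from the authors' table, 1 with normexp and 0 with no filter or with the methods' t-test. Over all probes, 7.2% were called with the slide block, 5.26% with the replicate block and 15.3% from the authors' table. The pathway count was 0 to 2 with 1 array left out, being 1 without single culture replicate 2 and 0 without single culture replicate 3, mix culture replicate 2 or mix culture replicate 3. The cause was not tested.

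HRAS, NRAS, BRAF, MAP2K1 and MAPK3 from base 819 kept their direction in every setting. With normexp the log2 change of MAP2K2 from base 1129 was -0.017. With 1 array left out, the changes ranged from -0.39 to 0.31, -0.45 to 0.19 and -0.37 to 0.10 for the ARAF probes from bases 1590, 358 and 2126. They ranged from -0.31 to 0.43, -0.50 to 0.53 and -0.031 to 0.41 for the MAP2K2 probes from bases 306, 1129 and 1827, and from -0.39 to 0.23 and -0.33 to 0.026 for the MAPK3 probes from bases 775 and 1605. Leaving out an array unbalances the slides between the cultures.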
